A study of Mus musculus with 38 samples.

Results

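The gene set described here was β-catenin (Ctnnb1), genes grouped with the adherens junction and genes of the proteins that mark β-catenin for destruction. It was fixed by name as 10 genes of the 55416 in the larger RNA table: the cadherins Cdh1 and Cdh16, the catenins Ctnnb1, Ctnna1, Ctnnd1 and Jup, and the degradation genes Apc, Axin1, Gsk3b and Btrc. All 10 were listed in the table that compared a β-catenin mutant with WT. Of the 5035 genes in the table that compared dDAVP with saline, 6 were members, and Ctnnd1, Apc, Gsk3b and Axin1 were not listed there. In the chromatin table, 247 of 270806 peaks carried the name of a member.

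E-cadherin (Cdh1) spans the membrane and binds the cadherin of the neighbouring cell. Inside the cell it holds p120-catenin and either β-catenin or γ-catenin, which α-catenin links to actin. Cdh16 is listed with the cadherins by name, and nothing here shows that it holds β-catenin. β-catenin that is not held at the junction is captured by a scaffold of Axin and APC, phosphorylated by casein kinase and GSK3, and passed to the proteasome by the ubiquitin ligase adaptor β-TrCP. When the scaffold is switched off, β-catenin enters the nucleus and works with TCF/LEF factors. Protein kinase A, which vasopressin activates in the principal cells of the collecting duct, can phosphorylate β-catenin near its C terminus.

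The samples were cortical collecting ducts (CCD), the kidney segment where vasopressin sets water reabsorption, dissected by hand from mice labelled C57BL/6. In the MT group the design text names a mutation of β-catenin at S552, a target site of protein kinase A. Titles gave 3 libraries to each of the units MT 1 to MT 4 and WT 1 to WT 4, and a unit mean was used as 1 replicate, with 4 units a group. The other RNA comparison set 4 libraries from WT mice infused for 5 days with dDAVP, an agonist of the V2 vasopressin receptor, against 4 from WT mice infused with saline. ATAC-seq, which measures how open chromatin is, compared 3 dDAVP with 3 saline libraries.

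The labels left several points unclear. All 24 libraries of the β-catenin table carried a dDAVP treatment and a WT group, and only titles and column names separated MT from WT, while the name of the table says that no vasopressin was given. Whether the MT and WT units had received dDAVP could therefore not be told from the labels. The title of dDAVP library 4 gives 4 as its CCD number and 3 as its dDAVP number. Age, sex, the number of MT alleles and the animal behind each library were not given in the labels, so p-values measure the spread between these samples, which may be technical.

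CCD genes dominated the libraries. The 10 principal cell markers summed to 27772 to 43284 TPM (transcript abundance scaled to a fixed library total) in MT units and 25088 to 48759 TPM in WT units. The 8 intercalated cell markers summed to 5009 to 5914 TPM in MT units and 4772 to 5752 TPM in WT units. RNA of neighbouring segments was uneven: the 4 thick ascending limb markers summed to 15.7 to 114 TPM in MT units and 10.2 to 1064 TPM in WT units, and the 7 proximal tubule markers to 10.9 to 424 TPM in MT units and 39.1 to 1010 TPM in WT units. The median correlation of a library with the others was 0.937 to 0.966 in the β-catenin table. In the dDAVP table it was 0.863 in saline library 3, 0.839 in saline library 4 and 0.913 to 0.934 in the other 6.

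Levels of the 10 genes spanned a wide range, with every junction gene above every degradation gene. Cdh16, the kidney-specific cadherin, averaged 3755 ± 326 TPM in MT units and 3782 ± 656 TPM in WT units (SD, n = 4 each). Cdh1, E-cadherin, stood next with a mean of 604 ± 30.0 TPM in MT units and 572 ± 34.7 TPM in WT units. Ctnna1 and Ctnnb1 followed, and their unit ranges overlapped in both groups. Jup, which encodes γ-catenin, came next, and its range met that of Ctnnb1 in WT units but not in MT units. Ctnnd1, p120-catenin, was next at 63.1 ± 1.66 TPM in MT units and 59.8 ± 3.75 TPM in WT units, with no overlap with its neighbours. The degradation genes filled the last 4 places, and the ranges of Axin1 and Gsk3b overlapped in both groups.

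**Figure D1:**
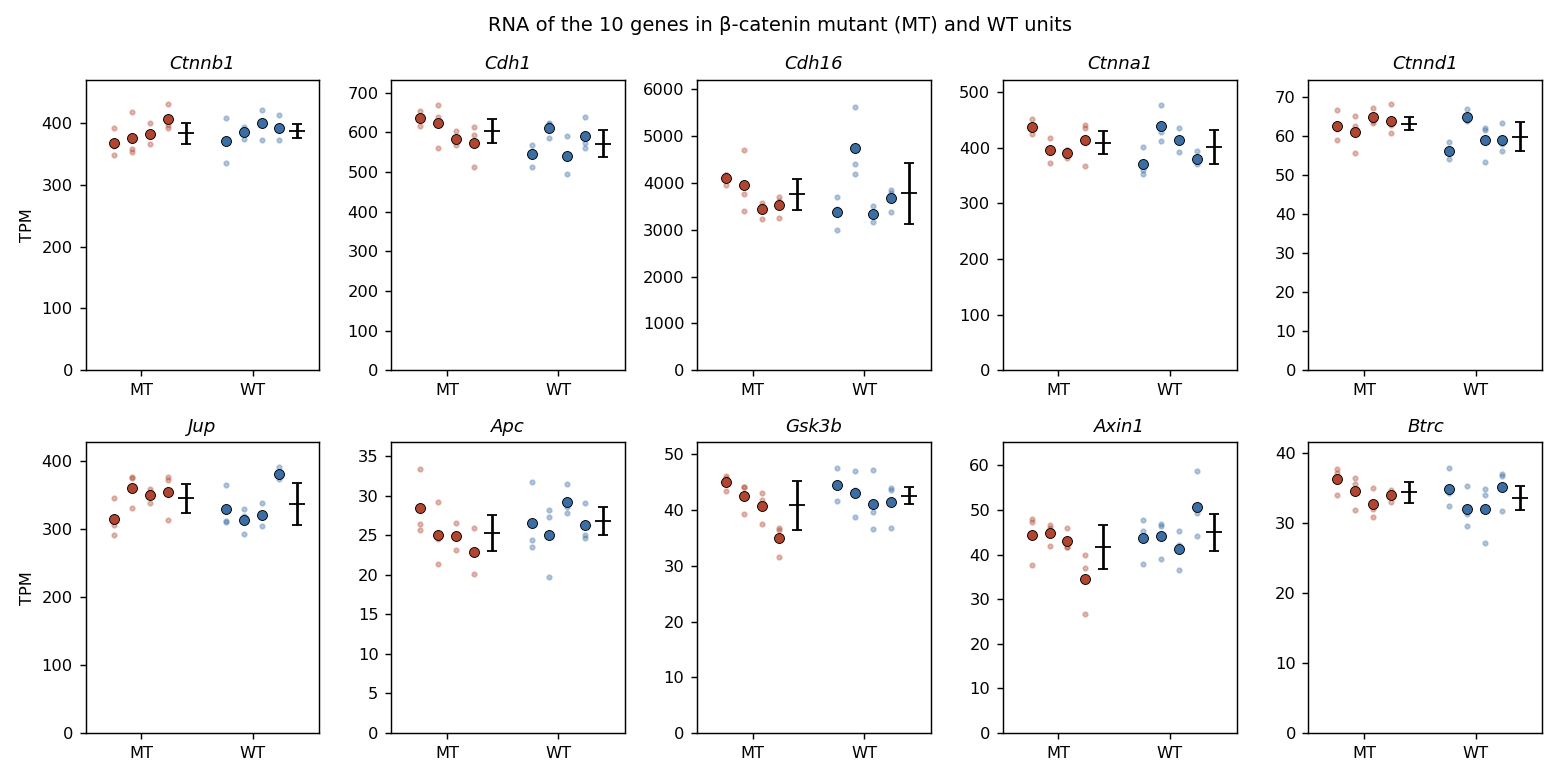
TPM of the 10 genes in the MT units (left, red) and the WT units (right, blue) of the β-catenin table. Large points are unit means in the order 1 to 4, small points the 3 libraries of each unit, and bars the mean and SD of 4 units; in every panel the MT and WT points share a range, and Axin1 and Gsk3b are lowest in MT unit 4.

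No member differed between MT and WT beyond the spread between units. With limma on log2(TPM + 1), 0 of the 10 genes passed an adjusted p of 0.05, and the background was 0% of 15013 genes tested (683 genes had an unadjusted p under 0.05, none of them a member). The ranges of MT and WT units overlapped for every one of the 10 genes, while they were separate for 3.02% of all genes. The log2 differences (MT minus WT) of the members ran from -0.11 to 0.08, with a median of 0.02 against 0.01 for all genes. Their median size regardless of sign was 0.05, against 0.08 for all genes. In bulk RNA, fewer cells of a type and less RNA per cell cannot be told apart.

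Ctnnb1, the gene that carries the mutation, lies at chr9:120933400-120960507 on GRCm38. It stood at 368.0, 376.1, 382.4 and 406.6 TPM in MT units 1 to 4 and at 371.6, 385.0, 399.6 and 392.1 TPM in WT units 1 to 4. The MT and WT values interleaved, and MT unit 4 was the highest of the 8. The mean was 383 ± 16.7 TPM in MT units and 387 ± 11.9 TPM in WT units, a log2 difference of -0.01 with a 95% interval for the fold of 0.919 to 1.07 (limma adjusted p = 0.999). TPM per gene cannot show a change of 1 residue, so these values do not check the MT label.

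Ctnnb1 was among the steadier genes of the table. Among 8842 genes at 10 TPM or more, 6.31% had a smaller SD between unit means of the same group than Ctnnb1, whose SD was 0.05 on the log2 scale against a median of 0.12. Btrc and Ctnnd1 were also steady, with 13.7% and 14.1% of genes below them. Cdh16 was the most variable member, with an SD of 0.19 and 79.3% of genes below it. These are ranks of the measured spread, given without a test.

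The cadherins showed more spread than difference. Cdh16 stood at 4101, 3961, 3435 and 3525 TPM in MT units 1 to 4 and at 3377, 4740, 3336 and 3674 TPM in WT units 1 to 4. WT unit 2 was the highest and WT unit 3 the lowest, so all MT values fell inside the WT range. Its log2 difference was 0.00, with a 95% interval for the fold of 0.828 to 1.21. Cdh1 stood at 636.0, 623.4, 584.8 and 573.4 TPM in MT units and at 545.2, 611.3, 540.7 and 591.2 TPM in WT units. MT units 1 and 2 were above all WT units, and the others lay among them. The log2 difference of Cdh1 was 0.08, with a fold interval of 0.963 to 1.16 (limma adjusted p = 0.969).

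The other catenins gave the same picture. Ctnna1, the link to actin, averaged 410 ± 20.8 TPM in MT units and 401 ± 31.2 TPM in WT units (fold interval 0.922 to 1.13). Jup, which can take the place of β-catenin at the junction and is also part of desmosomes, averaged 344 ± 20.8 TPM in MT units and 336 ± 30.8 TPM in WT units (fold interval 0.915 to 1.15). MT unit 1 and WT unit 2 held the lowest Jup values, 313.9 and 313.1 TPM, and WT unit 4 the highest, 380.8 TPM. Ctnnd1, which binds the cadherin near the membrane and slows its removal, had the smallest p of the 10: its log2 difference was 0.08, with a fold interval of 0.968 to 1.15 (unadjusted p = 0.188 and adjusted p = 0.969 in limma). Relative to Ctnnb1 in the same unit, Jup was 0.899 ± 0.0469 in MT units and 0.867 ± 0.0784 in WT units, and Ctnna1 was 1.07 ± 0.0794 in MT units and 1.04 ± 0.0743 in WT units.

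Of the 4 degradation genes, 3 had their lowest value of all 8 units in MT unit 4. Axin1, the limiting scaffold, stood at 44.4, 44.9, 43.1 and 34.5 TPM in MT units 1 to 4 and at 43.7, 44.1, 41.3 and 50.8 TPM in WT units 1 to 4. MT unit 4 was alone below 40 TPM, and its 3 libraries gave 37.07, 39.90 and 26.66 TPM. The log2 difference of Axin1 was -0.11 with all units and -0.02 without MT unit 4, and neither passed (limma adjusted p = 0.971 and 0.998). Gsk3b, the kinase that marks β-catenin for ubiquitination, stood at 45.1, 42.6, 40.8 and 34.9 TPM in MT units and 44.4, 43.1, 41.2 and 41.5 TPM in WT units, and its log2 difference of -0.06 was 0.01 without MT unit 4. Apc, the scaffold that binds β-catenin with Axin1, averaged 25.3 ± 2.30 TPM in MT units and 26.8 ± 1.78 TPM in WT units. Btrc, the ligase adaptor, averaged 34.4 ± 1.51 TPM in MT units and 33.6 ± 1.71 TPM in WT units, and its 95% fold interval of 0.938 to 1.12 was the narrowest of these 4.

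Several members overlap another gene in the annotation, and the labels do not state that counting used strand. Gsk3b shares 260 bases with the non-coding BC031361, Apc 1476 bases with the pseudogene Gm10548, and Axin1 1968 bases with the non-coding Gm46600. Ctnna1 contains all of Lrrtm2 and shares 805 bases with Gm46617, and Btrc spans 2 pseudogenes. Reads could have been split between such pairs.

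Wider lists of the pathway held no call between MT and WT either: limma adjusted p was 0.969 or more for each gene named here, and Ppp2r5a, Afdn and Perp had an unadjusted p under 0.05. Of all 15013 genes tested, 683 had an unadjusted p under 0.05. Of 21 tested genes of the destruction complex and β-catenin turnover, 0 passed, and the smallest p belonged to Ppp2r5a, a subunit of the phosphatase PP2A, at 94.0 ± 15.3 TPM in MT units and 114 ± 6.05 TPM in WT units (log2 difference -0.29). Tnks, a tankyrase that marks Axin for removal, had a log2 difference of 0.11, and the casein kinase Csnk1e of -0.15. Among 13 other adherens junction genes, Afdn, an actin-binding partner of nectins, had a log2 difference of -0.20, Cdh6 of 0.33 and Vcl, vinculin, of 0.16. Among 6 desmosome genes, Perp stood at 70.1 ± 5.29 TPM in MT units and 61.7 ± 0.930 TPM in WT units, and its groups did not overlap (limma unadjusted p = 0.0139). MT and WT units were separate for 3.02% of all genes tested. Dsg2 and Pkp3 had log2 differences of 0.11 and -0.08. Of the 10 nuclear partners, those with the smallest p were Crebbp, a histone acetyltransferase (-0.24), Chd8 (-0.09) and Ctnnbip1, an inhibitor of TCF binding (0.08).

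Kinases and target genes completed these lists. Of 5 kinases that can phosphorylate the C-terminal part of β-catenin, Akt1 had a log2 difference of -0.21, Akt2 of -0.06 with groups that did not overlap, and the PKA subunit Prkacb of 0.08, and 0 passed (limma adjusted p = 0.969 for each). Groups did not overlap for 3.02% of all genes. Of 12 β-catenin/TCF target genes, 4 reached a mean of 1 TPM and 0 passed. Znrf3, a ligase that removes Wnt receptors, stood at 4.86 ± 2.64 TPM in MT units and 7.33 ± 1.53 TPM in WT units, a log2 difference of -0.60 with a 95% interval of -1.31 to 0.10. Ccnd1, cyclin D1, stood at 136 ± 33.6 TPM in MT units and 108 ± 5.66 TPM in WT units, and Myc at 7.54 ± 4.20 TPM in MT units and 9.26 ± 2.82 TPM in WT units. The spread of all 3 among MT units was wider than among WT units. MT unit 4 weighed on several of these values: without it the log2 difference was -0.18 for Ppp2r5a, -0.06 for Csnk1e, -0.12 for Crebbp, -0.10 for Akt1, -0.33 for Znrf3, 0.45 for Ccnd1, -0.09 for Myc and -0.05 for Pkp3.

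**Figure D2:**
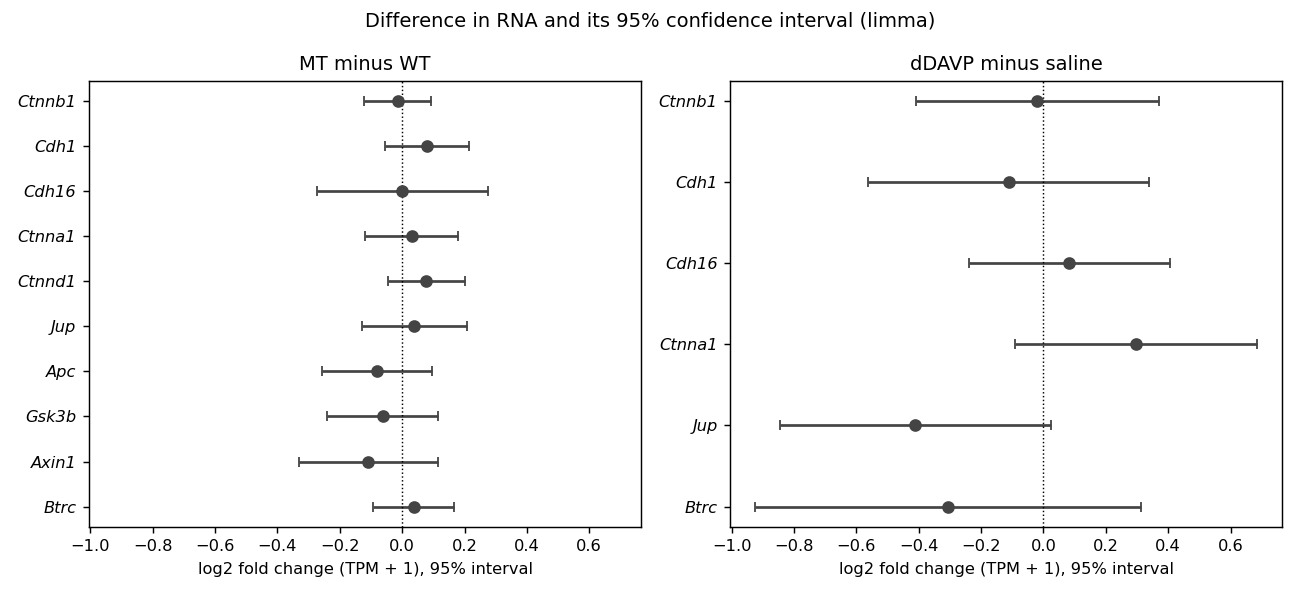
Log2 fold change of each member (point) with its 95% confidence interval from limma, for MT minus WT on the left (10 genes) and dDAVP minus saline on the right (6 listed genes). All 16 intervals include 0, and those of the dDAVP comparison are wider than those of the same genes between MT and WT.

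In the dDAVP comparison, RNA of the 6 listed members also gave no call. With limma, 0 of 6 passed an adjusted p of 0.05, beside a background of 0.695% of 5035 genes (28 genes or 0.556% higher and 7 genes or 0.139% lower in dDAVP libraries), and 0 of 6 had groups that did not overlap, beside 8.58% of all genes. The median log2 difference (dDAVP minus saline) of the 6 was -0.07, and that of all genes -0.06. Aqp2, the water channel that vasopressin induces, rose 1.59 on the log2 scale (limma adjusted p = 0.0028). The 8 intercalated cell markers summed to 1850 to 2807 TPM in dDAVP libraries and 2957 to 4114 TPM in saline libraries, ranges that did not meet. With limma 0 of these 8 passed, and 5 had an unadjusted p under 0.05, as did 553 of all 5035 genes. In the authors' deposited table Insrr and Slc26a4 passed (adjusted p = 3.6e-07 and 0.0469 from DESeq) and the others did not. Log2 differences of the 8 ran from -1.15 for Insrr to 0.16 for Aqp6, the 1 above 0, with a median of -0.53, and Slc4a1 was at -0.06. Whether this difference in the sums bears on the members was not tested.

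Ctnnb1 stood at 314.4, 283.8, 244.0 and 196.3 TPM in dDAVP libraries 1 to 4 and at 274.7, 232.2, 272.0 and 260.0 TPM in saline libraries 1 to 4. The dDAVP libraries lay on both sides of the saline libraries, with the highest and the lowest values of the 8. The log2 difference was -0.02 with a 95% interval of -0.41 to 0.37, and it was 0.04 after rescaling by the median of ratios. Of all genes, 4.35% had a smaller difference.

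Jup and Ctnna1 had the smallest p of the 6, with differences of opposite sign. Jup stood at 136.6, 155.9, 159.4 and 112.4 TPM in dDAVP libraries and at 172.4, 152.2, 195.5 and 234.0 TPM in saline libraries. Saline library 2 lay inside the dDAVP range, and the other 3 saline libraries were above it. The log2 difference was -0.41 with a 95% interval of -0.84 to 0.02 (limma unadjusted p = 0.0612, adjusted p = 0.481), and the authors' deposited table gave -0.41 with an adjusted p of 0.376. Ctnna1 stood at 478.3, 529.3, 470.1 and 314.9 TPM in dDAVP libraries and at 348.8, 383.9, 331.0 and 370.5 TPM in saline libraries. The first 3 dDAVP libraries were above every saline library and dDAVP library 4 below them all. The log2 difference was 0.30 (limma unadjusted p = 0.121, adjusted p = 0.571), and without dDAVP library 4, the one whose title is unclear, it was 0.46 (unadjusted p = 0.0113, adjusted p = 0.399). That was the largest value over all alternatives, which ran from 0.21 to 0.46. Set against Ctnnb1 in the same library, Jup was 0.552 ± 0.0904 in dDAVP and 0.726 ± 0.122 in saline libraries, and Ctnna1 1.73 ± 0.197 in dDAVP and 1.39 ± 0.196 in saline libraries, with overlapping ranges.

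**Figure D3:**
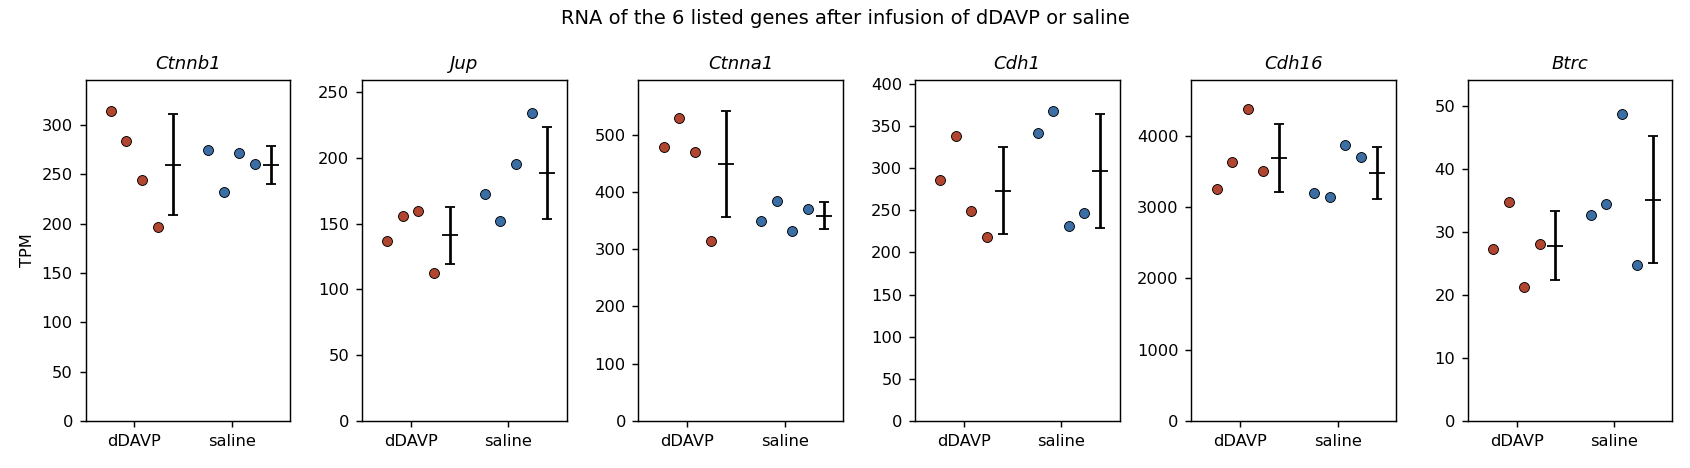
TPM of the 6 members listed in the dDAVP table, in the 4 dDAVP libraries (left, red) and the 4 saline libraries (right, blue), in the order 1 to 4, with the mean and SD. The 2 groups overlap in every panel; for Ctnna1 only dDAVP library 4 lies below the saline points, and for Jup only saline library 2 lies within the dDAVP points.

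The cadherins and Btrc varied by library. Cdh1 stood at 286.7, 338.2, 249.6 and 217.9 TPM in dDAVP libraries and at 342.1, 367.7, 232.0 and 246.7 TPM in saline libraries, a log2 difference of -0.11 (limma adjusted p = 0.878). Cdh16 stood at 3259, 3633, 4367 and 3501 TPM in dDAVP libraries and at 3192, 3143, 3873 and 3695 TPM in saline libraries, a log2 difference of 0.08 (limma adjusted p = 0.870). Neither cadherin separated the groups, and the spread within each group was wider than the distance between their means. Umod, which marks the thick ascending limb, ran from 20.95 to 5253 TPM in dDAVP libraries, with the highest in library 1. In saline libraries it ran from 84.1 to 825 TPM. The 3 listed proximal tubule markers summed to 397.5 to 2600 TPM in dDAVP libraries. In saline libraries they summed to 211 to 6751 TPM, highest in saline library 3. Whether RNA of these segments adds to the member values was not tested. Btrc stood at 27.3, 34.8, 21.3 and 28.2 TPM in dDAVP libraries and at 32.7, 34.4, 48.8 and 24.8 TPM in saline libraries, a log2 difference of -0.31 (limma adjusted p = 0.735). In the authors' deposited table Cdh1 and Btrc carried a mark for Wnt/Fzd targets, and all members other than Jup had an adjusted p of 1.00.

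The order of the 6 genes was alike in both groups, Cdh16 first, then Ctnna1, Cdh1, Ctnnb1, Jup and Btrc. In both groups Ctnna1 overlapped Cdh1 and Cdh1 overlapped Ctnnb1. The ranges of Ctnnb1 and Jup did not meet in dDAVP libraries but did in saline libraries. In the β-catenin table Cdh1 stood above Ctnna1, without overlap in either group; the tables were normalised apart and list different genes, so no level was compared between them.

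In the wider lists of the pathway, 0 genes passed in the dDAVP comparison with limma, and Ppp2r5a and Pkp4 had an unadjusted p under 0.05. Of all 5035 genes tested, 553 had an unadjusted p under 0.05. Among 15 listed turnover genes, Ppp2r5a had the smallest p, with 49.1 ± 13.6 TPM in dDAVP and 96.7 ± 29.2 TPM in saline libraries and groups that did not overlap (log2 difference -0.96, limma unadjusted p = 0.00729 and adjusted p = 0.241). Fbxw11, the other β-TrCP, and Cul1, the scaffold of the same ubiquitin ligase, also had groups that did not overlap, with log2 differences of -0.47 and -0.38 (limma adjusted p = 0.512 and 0.543). Of all 5035 genes in this comparison, 8.58% had groups that did not overlap. Of 6 listed junction genes, those with the smallest p were Pkp4, a relative of p120-catenin (log2 difference -0.91, limma adjusted p = 0.371), the actin-binding Lima1 (-0.61) and Nectin3 (0.22). Both listed desmosome genes, Dsp and Perp, and both listed nuclear partners, Tcf7l1 and Pygo2, had differences of -0.23 to 0.12. Akt1 had a log2 difference of 0.50, Prkaca, the PKA catalytic subunit, of -0.37 and Akt2 of -0.36 (limma adjusted p = 0.508, 0.678 and 0.698). Ccnd1, the 1 listed target gene, stood at 56.4 ± 9.90 TPM in dDAVP and 76.0 ± 40.5 TPM in saline libraries.

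Peaks over the starts of Ctnnb1, Cdh1, Cdh16, Ctnna1, Jup and, under a neighbour's name, Gsk3b, and at the first 5′ UTR exons of Apc and Axin1, were called lower after dDAVP in the authors' deposited table, as were most of the strongest peaks of all genes. Of the 247 member peaks, 19 passed an adjusted p of 0.05 in the authors' deposited table, all lower in dDAVP (7.69%), beside 6.82% of all peaks called, 5.98% lower and 0.846% higher. Calls were tied to signal across the whole table: at a mean log2 signal of 5 or more, 18 of 69 member peaks (26.1%) and 28.6% of 52807 peaks were lower. The median log2 fold of those member peaks was -0.48 and that of all such peaks -0.44. Between 9 and 10 log2 units, 6 of 7 member peaks and 85.5% of 2095 peaks were called lower. Values for single libraries were not used here, as the table gives group means, so the spread between libraries was not seen. Fold values are those the authors deposited and were not exactly the difference of the group signals.

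**Figure D4:**
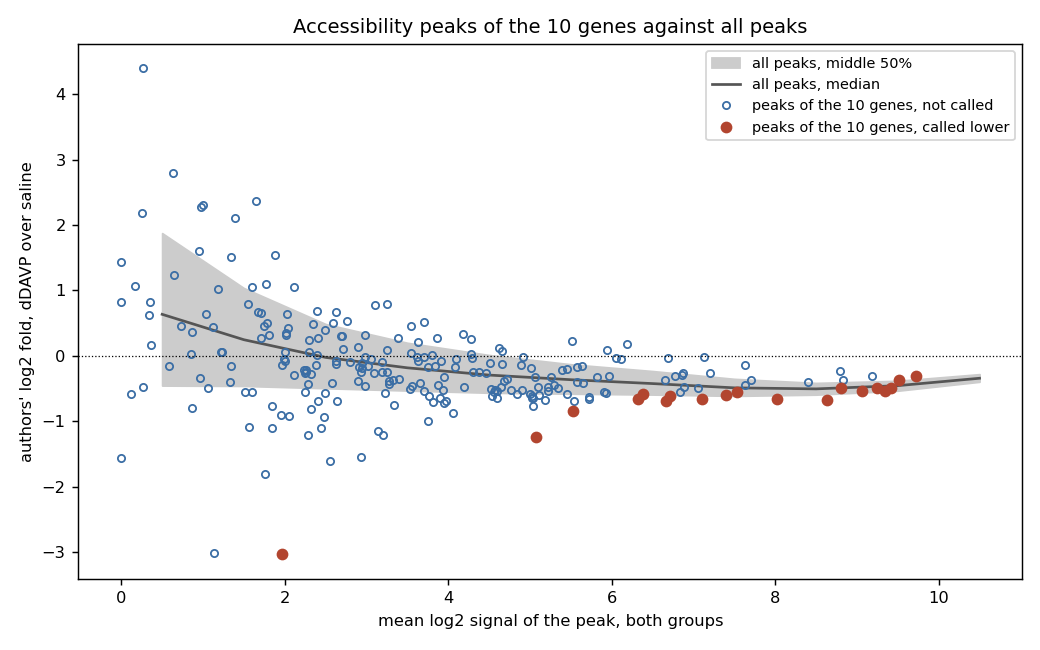
Log2 fold of dDAVP over saline from the authors' deposited table against mean log2 signal, for the 247 peaks named with a member (filled red, the 19 called lower; open blue, not called). The line and the grey band are the median and the middle 50% of all 270806 peaks in bins of 1 log2 unit; 18 of the called peaks lie at a signal of 5 or more, where the median of all peaks is below 0.

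The peak over the start of Ctnnb1, chr9:120933189-120934669 on mm10, had a log2 signal of 7.59 in dDAVP and 8.36 in saline. Its log2 fold was -0.66 (adjusted p = 0.00773 in the authors' deposited table), where peaks of like signal had a median of -0.50. It was the strongest of 8 Ctnnb1 peaks and the 1 called, while Ctnnb1 RNA differed by -0.02. Its mean log2 signal was 8.03, and between 8 and 9 log2 units 62.3% of all peaks were called lower. The RefSeq window of 250 bases before and 50 after 1 annotated start, chr9:120933328-120933627 on the plus strand of GRCm38.p6, is shown because it lies wholly inside this peak. It reads 5′ to 3′, with capitals marking TGACG (on either strand; the core of the element that CREB binds) and the TATA box letters TATAAA:
Ctnnb1: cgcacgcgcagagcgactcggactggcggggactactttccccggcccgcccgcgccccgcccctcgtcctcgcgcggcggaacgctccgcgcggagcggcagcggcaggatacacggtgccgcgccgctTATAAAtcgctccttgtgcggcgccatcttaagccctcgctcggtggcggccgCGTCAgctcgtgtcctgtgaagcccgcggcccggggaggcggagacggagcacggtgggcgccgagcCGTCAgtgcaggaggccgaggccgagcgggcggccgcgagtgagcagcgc
It holds 51 CpG, where the median of 32851 such windows is 7. On both strands, TGACG was found at 2 places in this window and in 20.8% of all windows, and TATAAA in 13.6% of all windows. CTTTG, a core that TCF factors bind, was not found in these 300 bases and was found in 53.9% of all windows. A match of letters is not evidence of binding, and the absence of one says nothing of the factor.

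Jup had 2 called peaks of 12, and its promoter peak had the highest signal of the 247 peaks named with a member. The called peaks had mean log2 signals of 9.72 and 9.34, and between 9 and 10 log2 units 85.5% of all peaks were called lower. Its promoter peak, chr11:100397289-100398285, was at 9.49 in dDAVP and 9.92 in saline, a log2 fold of -0.31 (adjusted p = 0.0273 in the authors' deposited table), where peaks of like signal had a median of -0.45. Its intron 1 peak, chr11:100395118-100396257, was at 8.98 in dDAVP and 9.63 in saline, a log2 fold of -0.54 (adjusted p = 0.000905 in the same table, the smallest of the 247). The RefSeq window of the Jup start, chr11:100397741-100398040 on the minus strand of GRCm38.p6, lies inside the promoter peak and is shown because that peak was called. Capitals mark CCAAT, the letters bound by NF-Y, and the TCF core:
Jup: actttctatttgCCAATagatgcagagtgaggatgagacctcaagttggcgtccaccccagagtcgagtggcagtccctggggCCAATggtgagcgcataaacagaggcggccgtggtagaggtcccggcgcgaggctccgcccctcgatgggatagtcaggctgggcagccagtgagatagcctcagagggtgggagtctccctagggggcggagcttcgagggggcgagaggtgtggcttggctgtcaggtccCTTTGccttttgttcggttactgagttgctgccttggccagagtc
CCAAT was found on either strand in 37.4% of all windows. With 14 CpG this window stood above the median of 7 and below those of Ctnnb1.

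Ctnnd1 has annotated starts at 2 places, and the chromatin table held a peak over the inner 1. Its inner window, chr2:84650691-84650990 on the minus strand, lay inside the promoter peak chr2:84650280-84651082, which was at 6.73 in dDAVP and 7.33 in saline and was not called (log2 fold -0.48, adjusted p = 0.0954 in the authors' deposited table). The outer window, chr2:84658928-84659227 on the minus strand, overlapped 0 of the 270806 peaks. The 2 windows are set side by side for their contrast in CpG, with capitals marking matches to the same 4 motifs on either strand:
Ctnnd1 inner: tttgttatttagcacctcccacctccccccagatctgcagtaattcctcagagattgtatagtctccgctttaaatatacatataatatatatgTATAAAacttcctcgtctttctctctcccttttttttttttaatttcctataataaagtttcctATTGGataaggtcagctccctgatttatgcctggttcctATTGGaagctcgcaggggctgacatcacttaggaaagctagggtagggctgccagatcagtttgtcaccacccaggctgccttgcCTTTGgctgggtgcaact
Ctnnd1 outer: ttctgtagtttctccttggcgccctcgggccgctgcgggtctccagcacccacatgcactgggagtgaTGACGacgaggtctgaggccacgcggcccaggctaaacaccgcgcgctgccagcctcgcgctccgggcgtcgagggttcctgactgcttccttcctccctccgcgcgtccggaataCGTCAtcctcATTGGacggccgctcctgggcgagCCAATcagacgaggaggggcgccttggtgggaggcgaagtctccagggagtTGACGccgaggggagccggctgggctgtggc
The inner window, under the peak, holds 3 CpG and a GC content of 42.7%, while the outer window, with no peak, holds 30 CpG and 67.7% GC. TGACG was found at 3 places in the outer window and not in the inner. The strongest Ctnnd1 peak, chr2:84635542-84636082 in intron 1, was not called (log2 fold -0.37, adjusted p = 0.227 in the authors' deposited table). Called peaks of Ctnnd1 were also intronic, chr2:84632921-84633407 with a log2 fold of -0.59 and chr2:84618570-84619450 with -0.66 (adjusted p = 0.0278 and 0.0227 in the authors' deposited table).

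The Gsk3b start is covered by a peak that the table names for its neighbour BC031361, so it falls outside the 247. This peak, chr16:38088218-38090089, was at 10.4 in dDAVP and 10.8 in saline, a log2 fold of -0.33 (adjusted p = 3.24e-07 in the authors' deposited table), and peaks of like signal had a median of -0.34. The Gsk3b window, chr16:38088751-38089050 on the plus strand, lies inside it and is shown because a count by name misses it. Capitals mark CCAAT, the TATA box letters and the TCF core, each on either strand:
Gsk3b: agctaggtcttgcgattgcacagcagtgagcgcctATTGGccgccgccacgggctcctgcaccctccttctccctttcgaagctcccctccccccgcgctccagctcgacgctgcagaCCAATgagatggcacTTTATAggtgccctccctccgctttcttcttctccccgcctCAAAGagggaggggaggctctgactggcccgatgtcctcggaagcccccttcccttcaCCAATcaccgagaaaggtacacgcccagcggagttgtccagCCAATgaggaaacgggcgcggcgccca
CCAAT was found at 4 places in this window. Of the peaks named for Gsk3b, the promoter peak chr16:38087990-38088114 had a log2 fold of -0.55 (adjusted p = 0.447 in the authors' deposited table) and the strongest, chr16:38073473-38074218, of -0.03.

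At the cadherin genes the strongest peaks were called lower in the authors' deposited table. The strongest peak of each cadherin and the Cdh1 start peak lay between 9 and 10 log2 units of mean signal. There 85.5% of all peaks were called lower, with a median log2 fold of -0.45. Cdh1 had 6 called peaks of 29. All 6 were among its 20 peaks with a signal of 5 or more, where 28.6% of all peaks were called lower. The peak over its start, chr8:106603122-106604446, had a log2 signal of 8.92 in dDAVP and 9.52 in saline (log2 fold -0.49, adjusted p = 0.00409). The strongest Cdh1 peak was in intron 2, chr8:106619453-106620877, at 9.08 in dDAVP and 9.69 in saline (log2 fold -0.49, adjusted p = 0.00197). The weakest of the 6, chr8:106606730-106606857, also in intron 2, had the largest fold, -0.84. The intron 2 peaks chr8:106605325-106605628 and chr8:106618482-106618697 had log2 folds of -0.70 and -0.59 (adjusted p = 0.0110 and 0.0485 in the authors' deposited table). The promoter peak of Cdh16, chr8:104623778-104625145, was at 9.25 in dDAVP and 9.74 in saline (log2 fold -0.37, adjusted p = 0.0159). Its strongest other peak, chr8:104607951-104608467 in intron 17, was not called (log2 fold -0.36, adjusted p = 0.280).

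Ctnna1 had 4 called peaks of 67 (5.97%), all lower, beside 5.98% of all peaks called lower. Of its peaks, 17 had a mean log2 signal of 5 or more, where 28.6% of all peaks were called lower. The promoter peak lay at 9.06, and between 9 and 10 log2 units 85.5% of all peaks were called lower. Its promoter peak, chr18:35118421-35119534, was at 8.70 in dDAVP and 9.35 in saline (log2 fold -0.53, adjusted p = 0.00399 in the authors' deposited table). The strongest other peak, the intergenic chr18:35093359-35095114, was at 8.61 in dDAVP and 8.95 in saline and was not called (log2 fold -0.22, adjusted p = 0.410). A weaker intergenic peak, chr18:35103205-35103679, 15223 bases from the gene, was at 4.24 in dDAVP and 5.60 in saline, a log2 fold of -1.24 (adjusted p = 0.00607 in the authors' deposited table), where the median of peaks of like signal was -0.36. A farther peak, chr18:35072163-35072717, had a log2 fold of -0.61 (adjusted p = 0.0296 in the same table). The weak peak chr18:35071130-35071254 was at the floor of 0 in dDAVP and at 2.83 in saline, and no fold is read from it. These intergenic peaks lie outside the gene and carry its name by the authors' annotation, while Ctnna1 RNA stood at a log2 difference of 0.30.

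Among the degradation genes, calls fell on strong peaks. Those with a mean log2 signal of 5 or more numbered 4 for Apc, 1 for Axin1, 2 for Btrc and 1 for Gsk3b, and 28.6% of all such peaks were called lower. Apc had 2 called of 44 (2 of the 4), at its first exon, chr18:34220440-34221781, with 8.19 in dDAVP and 8.98 in saline (log2 fold -0.68, adjusted p = 0.00127 in the authors' deposited table), and at an inner promoter, chr18:34247002-34247927, with 6.66 in dDAVP and 7.44 in saline (log2 fold -0.66, adjusted p = 0.0136). Axin1 had 1 called of 6, its 1 strong peak, chr17:26138125-26139610, annotated as its first 5′ UTR exon, with 8.47 in dDAVP and 9.07 in saline (log2 fold -0.49, adjusted p = 0.0188). Btrc had 0 called of 40, and its peak over the gene start, chr19:45363354-45364371, was at 8.96 in dDAVP and 9.38 in saline (log2 fold -0.31, adjusted p = 0.124). Gsk3b had 0 called of 3 under its own name, which leaves out the called peak over its start. Calls of all peaks rose with mean log2 signal, from 39.6% lower between 7 and 8 to 62.3% between 8 and 9 and 85.5% between 9 and 10. The called Apc peaks lay at 7.10 and 8.64, the Axin1 peak at 8.80 and the Btrc start peak at 9.19.

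Across the 24 libraries of the β-catenin table, members did not follow Ctnnb1 closely. Of the other 9, Ctnnd1 had the highest Spearman correlation with it, 0.31, place 1389 among 8841 genes at 10 TPM or more. The 5 genes most like Ctnnb1 were Lonp1 at 0.81, Plcg2 at 0.81, Arfgap3 at 0.78, Map3k5 at 0.75 and Tmco4 at 0.75. The libraries share their unit in threes and a common composition, so these values are descriptions. Cdh1 and Cdh16, by contrast, had a correlation of 0.84, Cdh1 and Ctnnd1 of 0.63, and Cdh1 and Ctnna1 of 0.61.

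Cell markers ran alongside some members in the same 24 libraries. Aqp2, of principal cells, and Slc26a4, the chloride-bicarbonate exchanger of type B intercalated cells, were picked from the marker lists after the values were known. Cdh16 had a Spearman correlation of 0.74 with Aqp2 and -0.75 with Slc26a4, and Ctnna1 of 0.69 with Aqp2 and -0.23 with Slc26a4. Cdh1 had a correlation of 0.50 with Aqp2 and -0.54 with Slc26a4. Ctnnb1 had a correlation of 0.61 with Slc26a4 and -0.21 with Aqp2. For Jup, Apc, Gsk3b, Axin1, Btrc and Ctnnd1, both correlations ran from -0.25 (Jup with Aqp2) to 0.25 (Ctnnd1 with Aqp2). These libraries fall in units of 3, and MT unit 1 and WT unit 2 held the highest Aqp2. Whether cell make-up sets these relations was not tested.

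**Figure D5:**
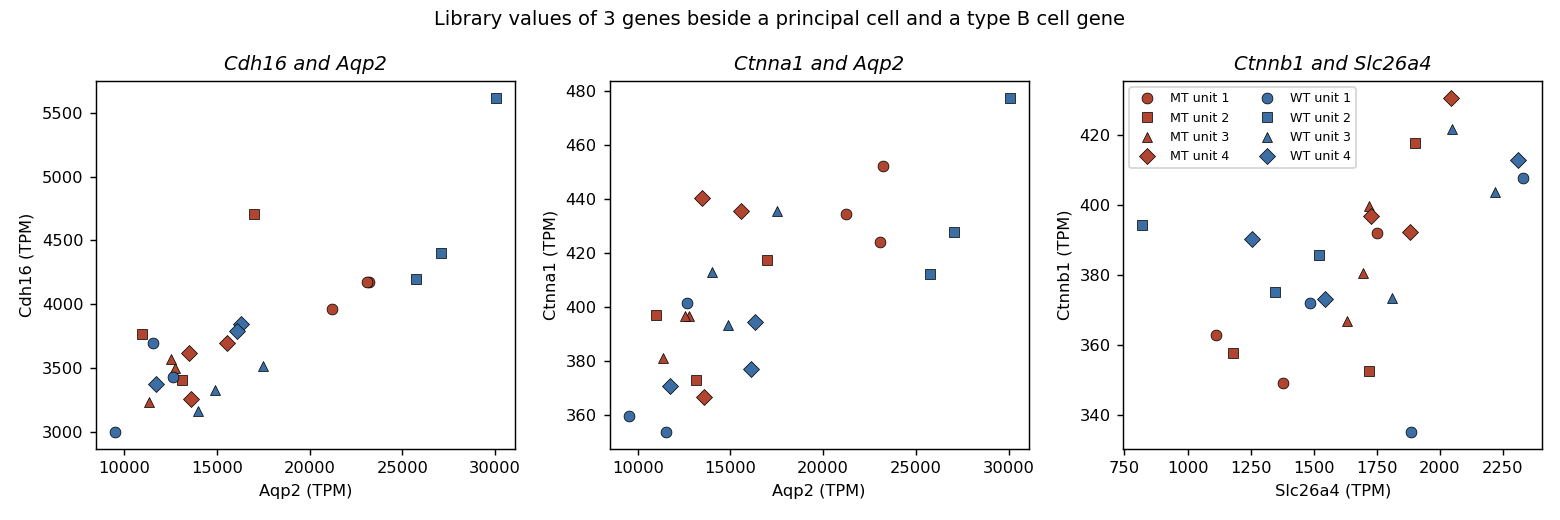
Cdh16 and Ctnna1 against Aqp2, and Ctnnb1 against Slc26a4, in TPM, in the 12 MT libraries (red) and 12 WT libraries (blue), with 1 symbol per unit number. The axes do not start at 0; high Aqp2 libraries, from MT unit 1 and WT unit 2, are also high in Cdh16, and red and blue points share the same field.

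RNA and accessibility after dDAVP can be set side by side at the 6 genes listed in the RNA table. The peaks at the starts of Ctnnb1, Cdh1, Cdh16, Ctnna1 and Jup were called lower in dDAVP at log2 folds of -0.66, -0.49, -0.37, -0.53 and -0.31 in the authors' deposited table. RNA of these genes gave log2 differences of -0.02, -0.11, 0.08, 0.30 and -0.41. The peak at the Btrc start, at -0.31, was not called, and Btrc RNA gave -0.31. None of the 6 RNA differences passed with limma. The RNA and chromatin libraries are separate samples.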

How the data were processed

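RNA-seq and ATAC-seq tables of mouse CCD were used as deposited. Both RNA tables held TPM made by the authors. SMARTer V4 and Nextera XT libraries were made, per the labels' protocols. STAR, RSEM, cutadapt 3.4, Bowtie2, MACS2 and DiffBind were named with the build mm10, per the submitters' processing notes, without settings. The dDAVP table lists only genes whose lowest TPM is above 10, per the file headers. It also holds the authors' log2 fold change and adjusted p-value from DESeq. The ATAC table gives log2 signal as deposited group means with a floor at 0, and the authors' log2 fold and p-value per peak. TPM keeps no depth, so depth is unknown and no counting interval is given.

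MT and WT were taken from titles, and a unit is the mean TPM of its 3 libraries. Each RNA comparison was fitted over the whole table with limma 3.58.1 (eBayes with a trend, two-sided, Benjamini-Hochberg, threshold 0.05) in R 4.3.3 on log2(TPM + 1), keeping genes whose mean TPM was at least 1. Fold changes on that scale understate changes of low genes. The fit was tested on simulated data. ATAC calls are the authors'. Promoter windows and gene positions came from RefSeq on GRCm38.p6, the build of mm10. Windows matched 4 members and were printed for these, except 1 of the Ctnnb1 windows. Arvcf and the older symbols Skp1a, Mllt4, Pvrl1, Pvrl2 and Pvrl3 had no entry in the β-catenin table.

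Named were all members, for each list the genes called or else the 3 of smallest p, for each member the strongest promoter and other peak and up to 3 called peaks of largest fold at a signal of 3 or more, and the 5 genes most like Ctnnb1. A few further values were named after they were seen: Aqp2 and Slc26a4 as companions, the BC031361 peak, a weak Ctnna1 peak, and further peaks at gene starts. The members and lists were chosen with earlier results of these data known. Alternatives were other pseudocounts, filters and scalings, the median of a unit's libraries, all 24 libraries with the unit as a random effect, the replicate number as a block, each replicate left out, and other readings of the ATAC fold.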

Additional observations from a re-analysis of the deposited data

Results flagged for a closer look

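Axin1 in the MT units stood out for 1 unit far from the rest. MT unit 4 was at 34.5 TPM and the other 3 MT units at 43.1 to 44.9 TPM, so the gap to the nearest made up 0.832 of the whole range, above Dixon's 95% critical value for 4 samples. In all, 32 groups of 4 were examined this way, and chance marks about 1 in 20. The same unit was also the lowest of the 8 in Gsk3b and Apc, and its 3 libraries gave 37.07, 39.90 and 26.66 TPM for Axin1.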

How the results depend on the processing

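No member was called in either RNA comparison under any alternative; limma adjusted p ran from 0.652 to 1 between MT and WT and from 0.399 to 1.00 for dDAVP. The count of all genes called between MT and WT, 0 as reported, was 0 to 5 with a unit left out (5 without MT unit 4, among them Snord13; 2 without WT unit 4; 1 without MT unit 2 or WT unit 3) and 1 with all 24 libraries, Anp32a; both genes are named after their values were seen. The dDAVP count of 35 was 7 to 47 with a library left out: 7 without dDAVP library 3, 16 to 23 without dDAVP library 1, 2 or 4 or saline library 1 or 2, and 38 and 47 without saline libraries 3 and 4. Same-number correlations were -0.03 to 0.04 for MT and WT, where those of unlike numbers ran from -0.25 to 0.30. For dDAVP and saline they were 0.19, 0.23, 0.09 and -0.15 for numbers 1 to 4, where those of unlike numbers ran from -0.23 to 0.19. The same-number value was the highest for dDAVP libraries 1, 2 and 3 and the lowest for dDAVP library 4. Whether the replicate number pairs dDAVP and saline samples was not tested. With the replicate block the counts were 0 and 8. Values near 0 changed sign; the cause was not tested. Rescaling by the median of ratios gave log2 differences of -0.0079 for Btrc, -0.045 for Cdh16, -0.014 for Ctnna1 and -0.0061 for Jup between MT and WT, and 0.042 for Ctnnb1 and 0.049 for Perp after dDAVP. Quantile normalization gave -0.068 for Cdh16 (MT), 0.034 for Ctnnb1 and 0.059 for Perp (dDAVP). With 1 unit left out, MT minus WT ran from -0.054 to 0.11 for Cdh16, -0.0049 to 0.075 for Ctnna1, -0.043 to 0.0045 for Ctnnb1 and -0.11 to 0.0082 for Gsk3b. With 1 library left out, dDAVP minus saline ran from -0.00045 to 0.14 for Cdh16, -0.12 to 0.11 for Ctnnb1, -0.18 to 0.19 for Perp, -0.13 to 0.14 for Pygo2 and -0.033 to 0.28 for Tcf7l1. At an adjusted p under 0.01 in the authors' deposited table, 7 member peaks were called. The share of all peaks at that threshold is not given here, so this count is not read as high or low. After subtracting the median fold of peaks of like signal, the strongest peak was at 0.017 for Axin1, 0.15 for Btrc, 0.081 for Cdh16, 0.12 for Ctnnd1, 0.39 for Gsk3b and 0.14 for Jup, and stayed below 0 for Apc (-0.18), Ctnnb1 (-0.15), Ctnna1 (-0.080) and Cdh1 (-0.036). Unknown depth and 4 replicates a group limit how small a difference can be seen.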
